A study of Sus scrofa with 5 samples.

Results

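Collagen-rich cells below a limit on cardiac myosin were found in blastoids, blastocyst-like structures grown from pig embryonic stem cells (pESCs), by 10x single-cell RNA sequencing. A cell was chosen by the raw counts of 4 genes, with at least 10 UMIs (unique molecules counted) of COL3A1 + COL1A2 and under 20 UMIs of MYL7 + MYL4. COL3A1 encodes the chain of type III collagen and COL1A2 a chain of type I collagen, while MYL7 and MYL4 encode atrial myosin light chains of heart muscle. The rule found 1366 cells among 15544 called cells (8.79%), 799 of 7369 in library 1 and 567 of 8175 in library 2. A called cell had at least 11223 UMIs in library 1 and at least 9805 in library 2.

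Both libraries held day 6 blastoids in iBlastoid medium, reached after a first step in 4FXY medium. The iBlastoid medium supplies the proteins BMP4, bFGF, activin A, LIF, IGF1 and IL-6 with its soluble receptor, and the compounds CHIR99021 (a GSK3 inhibitor), XAV939 (a tankyrase inhibitor), SB431542 (a TGF-beta receptor inhibitor), Y-27632 (a ROCK inhibitor), DZNep and TSA. The study derived its pESCs from parthenogenetic blastocysts, kept them on mitomycin C-treated mouse embryonic fibroblasts, and picked blastoids by hand before dissociation. The labels do not say how many blastoids went into a library, nor whether the libraries came from separate cultures, so every p-value below measures only the spread between 2 libraries, which may be technical. The 3 bulk libraries of pESCs in 4FIXY medium give the level in cultured pESCs. Their columns are named IVFP25, PA_4P7 and PAP25, which the labels do not spell out, so a shared origin and passage cannot be assumed. The columns differ in paternally expressed genes, given below, and a mean over the 3 mixes them.

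Fibrillar collagens are secreted by mesenchymal cells, which lie loosely in a matrix and carry no tight epithelial contacts. In the early conceptus such cells form the extraembryonic mesoderm, which lines the amnion, the yolk sac and the allantois. The hypoblast, an epithelium under the epiblast, shares GATA6, GATA4 and PDGFRA with that mesoderm but is defined by endoderm factors such as SOX17 and FOXA2. Fibroblasts used as feeder cells also make collagen in abundance.

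The cells chosen had a median of 48 COL3A1 + COL1A2 UMIs in library 1 (quartiles 21 and 82, highest 662) and 41 in library 2 (quartiles 21 and 72.5, highest 586). Their median MYL7 + MYL4 count was 2 UMIs in library 1 (upper quartile 5, highest 19) and 1 in library 2 (upper quartile 4, highest 18). The cells were thus not free of cardiac myosin. MYL7 stood at 93.9 and 98.6 CPM (UMIs of a gene per 1000000 UMIs counted), above the 10.9 and 7.84 CPM of the remaining cells defined below and near the 94.5 and 72.9 CPM of empty droplets. MYL4 stood at 7.25 and 5.14 CPM against 1.59 and 1.37 CPM in remaining cells and 43.3 and 31.6 CPM in empty droplets. These values chose the cells and are given as a description. A further 272 cells had at least 20 UMIs of MYL7 + MYL4 and are called cardiac myosin cells here. The other 13906 cells, called remaining cells, had under 10 collagen UMIs (median 0) and under 20 myosin UMIs.

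**Figure D1:**
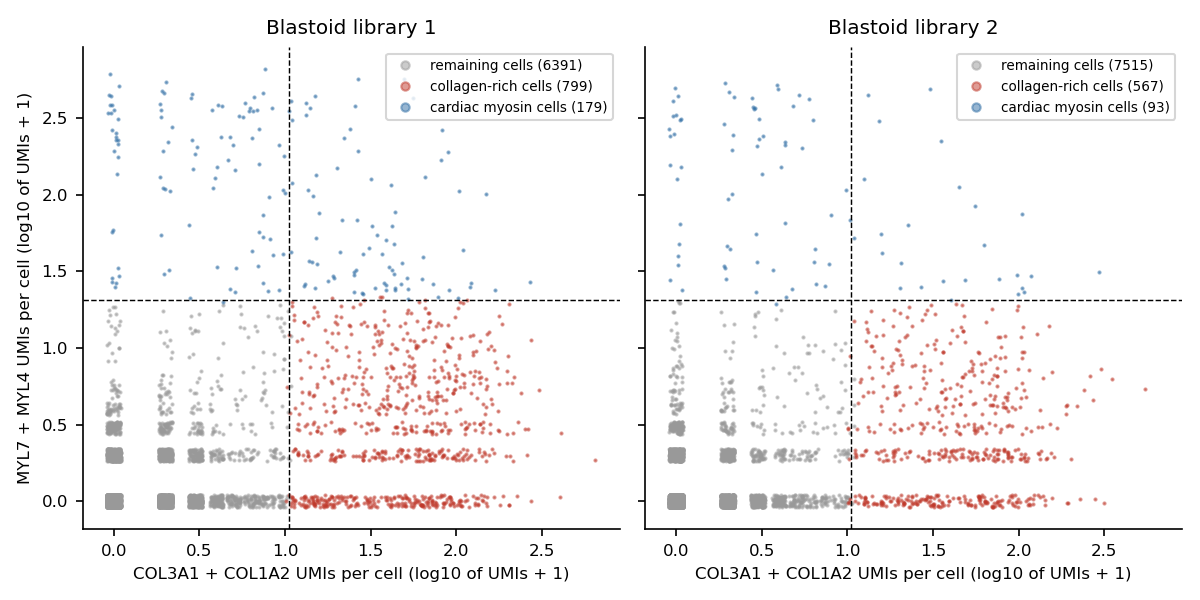
COL3A1 + COL1A2 UMIs (x axis) against MYL7 + MYL4 UMIs (y axis) in each called cell, both as log10 of UMIs + 1 with a small random shift, for libraries 1 and 2. Dashed lines mark 10 collagen UMIs and 20 myosin UMIs; the 799 and 567 collagen-rich cells (red) fill the lower right without a gap to the 6391 and 7515 remaining cells (grey).

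The collagen-rich share was 10.8% of called cells in library 1 (95% exact binomial interval 10.1 to 11.6, counting error only) and 6.94% in library 2 (6.39 to 7.51). The intervals do not overlap, although both libraries carry the same labels. The shares depended on the counting rule. With at least 20 collagen UMIs they were 8.52% and 5.38%, and with both gates applied after each cell was thinned to 9805 UMIs they were 7.75% and 5.25%. Collagen-rich cells were shallower than the remaining cells, with medians of 24791 and 21245 UMIs against 30196 and 28125.

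Depth, mitochondrial share and doublet calls were compared as a check on the cells. The median mitochondrial share was 0.46% and 0.466% of UMIs in collagen-rich cells against 0.622% and 0.591% in remaining cells. Doublet calls covered 16.0% and 15.3% of the collagen-rich cells but 4.26% and 5.75% of the remaining cells, and they fell mostly into 1 cluster described below. The libraries shared 9 cell barcodes. Empty droplets (10 to 100 UMIs) held COL3A1 at 114 and 45.6 CPM, above the 10.1 and 6.0 CPM of the remaining cells, and how far free RNA added to the levels in cells was not tested.

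Levels near the limits of the rule are given as a description. Cells with 10 to 14 collagen UMIs held TWIST1, a transcription factor of mesenchyme, at 250 and 296 CPM, and cells with 5 to 9, just outside, at 130 and 77.1 CPM. Cells with at least 50 collagen UMIs held it at 461 and 557 CPM. DCN, the gene of the largest rise below, showed no such step at the limit, with 14.6 and 5.18 CPM at 10 to 14 collagen UMIs and 5.87 and 9.21 CPM at 5 to 9, lower inside than outside in library 2. It reached 487 and 539 CPM at 50 or more. Across the myosin limit no step was seen in TWIST1, with 469 and 801 CPM at 15 to 19 myosin UMIs and 604 and 789 CPM at 20 to 24, in 16 and 6 cells for the latter.

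The first comparison asked which other genes set the collagen-rich cells apart from all other called cells. UMIs were summed per library and class, and the 2 sums of collagen-rich cells were tested against the 2 sums of all other cells with edgeR. Of 20047 genes tested, 3617 were higher in collagen-rich cells (18.0%) and 3254 lower (16.2%) at an adjusted p under 0.05, with a median log2 fold change of -0.01 over all genes. Counts of calls in the gene lists below stand against these shares of all genes. The 4 genes of the rule were left out of the results. The cells were chosen by collagen, so the counts describe what differs between cells chosen in this way.

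Matrix genes and regulators of mesenchyme were among the genes with the largest rise that reached 50 CPM. DCN, which encodes the collagen-binding proteoglycan decorin, stood at 258 and 264 CPM in collagen-rich cells and at 2.57 and 1.30 CPM in all others (log2 fold change 7.13 ± 0.27 SE, adjusted p = 2.88e-06). LUM encodes lumican, a relative of decorin, and rose by 6.33 ± 0.42 from 2.57 and 0.798 CPM to 127 and 134 CPM (adjusted p = 3.39e-05). The genes lie next to each other on chromosome 5 of susScr11, DCN at 91678601 to 91713925 and LUM at 91748871 to 91756381. COL1A1, the partner chain of COL1A2, rose 40.7-fold to 323 and 387 CPM, and 80.2% and 74.1% of all its UMIs in called cells lay in collagen-rich cells.

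PTX3, a secreted pattern recognition protein, rose 60.5-fold to 104 and 127 CPM. TEK, the angiopoietin receptor, rose 54.2-fold to 56.7 and 58.8 CPM. HOXB2, a homeobox gene of axial position, rose 34.6-fold. The other genes among the 10 with the largest rise were CNTNAP5 (29.3-fold), NKD1, an inhibitor of WNT signalling (28.1-fold), RGS5, known from pericytes (27.4-fold), and TWIST1 (26.3-fold, 438 and 487 CPM). In each of these 10 genes both collagen-rich sums lay above both sums of other cells.

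TWIST1 was found in 81.1% and 83.8% of collagen-rich cells after thinning to 9805 UMIs (89.7% and 91.0% before) against 7.68% and 5.76% of remaining cells (19.3% and 15.2% before). DCN was found in 42.8% and 41.3% of thinned collagen-rich cells against 1.17% and 0.692% of remaining cells (54.2% and 48.9% against 3.83% and 2.10% before). CST3, the protease inhibitor cystatin C, stood at 5923 and 6639 CPM against 457 and 405 CPM in all other cells. This gene was named after its values were seen.

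**Figure D2:**
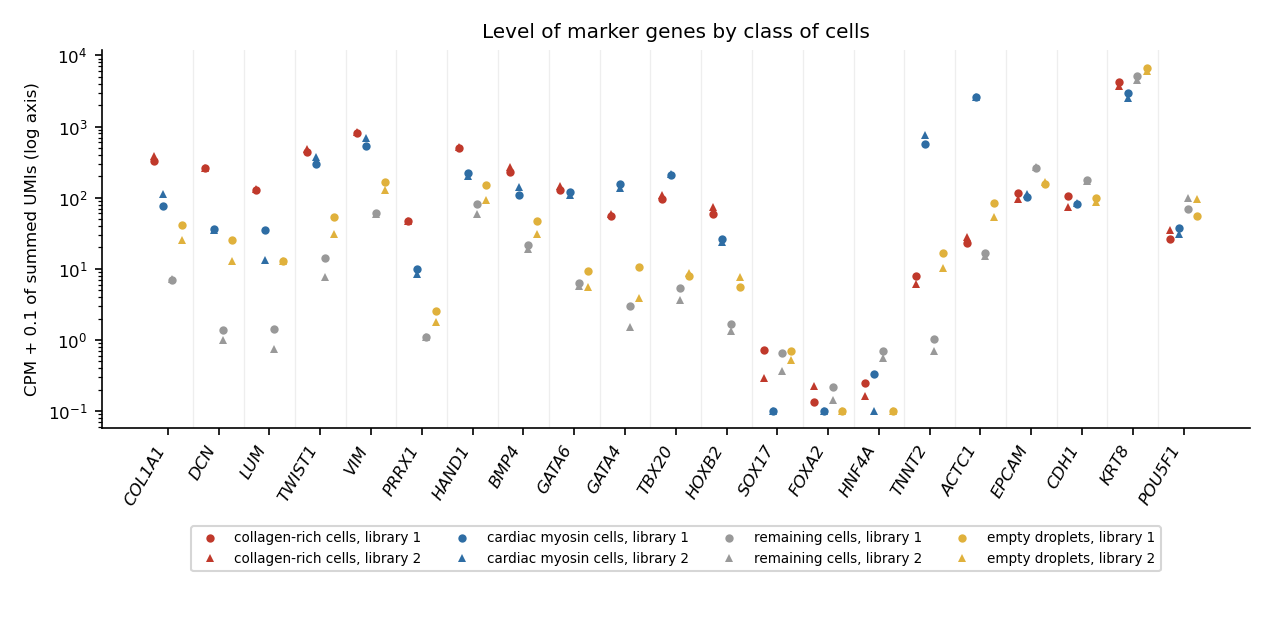
Level of marker genes as CPM of summed UMIs plus 0.1 (log axis) in collagen-rich cells, cardiac myosin cells, remaining cells and empty droplets, with library 1 as circles and library 2 as triangles. Matrix and mesenchymal genes on the left are highest in collagen-rich cells, SOX17, FOXA2 and HNF4A lie below 1 CPM in every class, and TNNT2 is lower in collagen-rich cells than in empty droplets.

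Collagen genes and the enzymes that process them rose together. Of 9 other fibrillar collagen genes, all tested, 7 were higher and none lower, with a median log2 fold change of 1.51. The call of COL2A1 (adjusted p = 0.0485) was lost under DESeq2, with scaling by total UMIs, without the filter on low counts, without the collagen-rich sum of library 1 or of library 2, without the sum of other cells of library 2, and with at least 20 collagen UMIs (0.01), and its direction turned on thinned counts (-0.10). COL5A2 reached 180 and 200 CPM against 13.3 and 13.9 CPM in remaining cells. Of 19 genes for collagen modification and cross-linking, 18 were higher and 1 was not called. PPIB, a prolyl isomerase, stood at 960 and 1007 CPM, and SERPINH1, the collagen chaperone HSP47, at 340 and 300 CPM against 126 and 104 CPM in remaining cells. ADAMTS2, which trims procollagen, rose by 3.96 ± 0.16 on the log2 scale.

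Interstitial matrix genes behaved likewise, with 23 of 24 tested higher and 1 not called. FN1 (fibronectin) stood at 768 and 770 CPM and VCAN (versican) at 364 and 428 CPM against 52.9 and 54.1 CPM in remaining cells. Of 17 basement membrane genes 13 were higher and 2 lower. NID2 (nidogen 2) rose by 4.52 ± 0.10, and 70.8% and 60.3% of its UMIs lay in collagen-rich cells. COL4A1, of type IV collagen, rose less (2.01 ± 0.08), and 30.4% and 20.7% of its UMIs lay there.

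Of 16 genes tied to the mesenchymal state, 14 were higher and 2 (FOXC1 and FOXC2) lower, with a median log2 fold change of 2.89. VIM (vimentin) stood at 798 and 838 CPM against 60.9 and 58.6 CPM in remaining cells. PRRX1, a homeobox factor of loose mesenchyme, stood at 46.8 and 46.9 CPM against 1.02 and 0.994 CPM. Of 18 epithelial genes 16 were lower, 1 (CDH3) higher and 1 (KRT8) not called. EPCAM, an epithelial adhesion molecule, stood at 118 and 95.9 CPM against 261 and 268 CPM in remaining cells. The clusters described below differed in it, with 195 and 194 CPM in cluster 3, most of whose cells were called doublets, 312 and 290 CPM in cluster 6, and 12.8 and 11.2 CPM in clusters 1, 2, 4 and 5 together. The keratin KRT8 held 4172 and 3725 CPM against 5057 and 4556 CPM (adjusted p = 0.0535), a difference that passed with the library as a block (adjusted p = 0.0123) and under 8 other alternatives, the adjusted p ranging from 0.000359 to 0.273 over all of them.

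Because of their GATA6 and GATA4, the genes by which the study named hypoblast-like cells, the collagen-rich cells were set against lists of hypoblast and of extraembryonic mesoderm genes. GATA6 stood at 128 and 145 CPM against 6.13 and 5.7 CPM in remaining cells, and 59.9% and 56.5% of its UMIs lay in collagen-rich cells. GATA4 stood at 55.0 and 58.4 CPM against 2.95 and 1.43 CPM, with 43.4% and 54.5% of its UMIs there. Cardiac myosin cells held another 37.9% and 24.4% of the GATA4 UMIs.

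The study further set its hypoblast-like cells against published pig embryo cells and stained blastoids for GATA6 and GATA4 protein. The collagen-rich cells were not matched here to the cells it named hypoblast-like. It also showed NID2 and COL4A1, given here with the basement membrane, as hypoblast genes. NID2 stood at 77.7 and 93.0 CPM against 3.25 and 3.55 CPM in remaining cells, and COL4A1 at 141 and 165 CPM against 35.7 and 38.3 CPM, both called higher.

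The endoderm factors SOX17, FOXA2 and HNF4A were near 0. SOX17 stood at 0.625 and 0.193 CPM, FOXA2 at 0.0368 and 0.128 CPM and HNF4A at 0.147 and 0.0642 CPM in collagen-rich cells. SOX17 was found in 3 of 799 and 1 of 567 thinned collagen-rich cells (0.375% and 0.176%) and in 0.25% and 0.2% of remaining cells, and before thinning in 0.751% and 0.529% against 0.469% and 0.466%. APOA1, a lipoprotein of visceral endoderm, was lower in collagen-rich cells, at 120 and 116 CPM. It stood at 204 and 207 CPM in remaining cells and 307 and 314 CPM in empty droplets. The pESC libraries held APOA1 as well, with levels given below.

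Of 17 hypoblast and visceral endoderm genes 5 were higher, 3 lower and 9 not called, with a median log2 fold change of -0.10. Over all genes tested 18.0% were higher and 16.2% lower, so the share of lower genes is near that of all genes. The 5 higher genes were GATA4, GATA6 and PDGFRA, which the list of extraembryonic mesoderm also holds, DAB2, an endocytic adaptor (116 and 125 CPM), and CUBN, an endocytic receptor (5.22 and 4.17 CPM). The 3 lower genes were APOA1, HNF4A and FOXA1. HNF4A rested on 4 and 1 UMIs in collagen-rich cells, and its call was lost under DESeq2 (adjusted p = 0.0549), without the collagen-rich sum of library 2 (0.0607) and with MYL7 + MYL4 under 5 UMIs (0.0590).

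Of 18 extraembryonic mesoderm genes all 18 were tested and higher, with a median log2 fold change of 3.41. HAND1, a factor of extraembryonic and cardiac mesoderm that trophoblast also carries, stood at 505 and 521 CPM against 81.9 and 59.6 CPM in remaining cells, and was found in 82.2% and 80.2% of thinned collagen-rich cells against 30.5% and 24.8%. BMP4, a ligand that the medium also supplies as protein, rose by 3.52 ± 0.10 to 233 and 271 CPM. TBX20 rose by 3.48 ± 0.30 and the mesenchymal repressor SNAI2 by 4.02 ± 0.21. FOXF1, which marks allantoic and lateral mesoderm, was higher as well, at 4.97 and 6.55 CPM against 0.755 and 0.787 CPM in remaining cells. DCN, LUM, POSTN and PDGFRB belong to the fibroblast list as well, so that the lists are not independent. TWIST1 and SNAI2 are also in the mesenchymal list, HAND2 in the heart muscle list and BMP4 in the BMP list. The 18 genes summed to 2125 and 2281 CPM in collagen-rich cells. Cardiac myosin cells held 1320 and 1361 CPM and remaining cells 165 and 125 CPM, so a high sum was not particular to the collagen-rich cells.

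The fibroblast list was read for feeder cells, with the limit that mouse reads count here only where they map to the pig genome. Of 17 genes in the files 16 were tested, 11 were higher and 1 (PDPN) lower, with a median log2 fold change of 2.11. The higher genes were COL1A1, DCN, LUM, POSTN, THY1, PDGFRB, PRRX1, TNC, LOX, FBN1 and DPT. The 17 genes summed to 1224 and 1288 CPM in collagen-rich cells. They summed to 319 and 367 CPM in cardiac myosin cells and 210 and 205 CPM in remaining cells. The genes COL6A3 (0.147 and 0.0642 CPM), FAP (0.11 and 0.193 CPM), DPT (0.405 and 0.45 CPM) and NT5E (0.552 and 0.45 CPM) were near 0 in collagen-rich cells, and of these DPT was called higher. COL6A1 has no row in the count files. Feeder origin was not tested, since counts on the pig genome cannot separate the species.

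**Figure D3:**
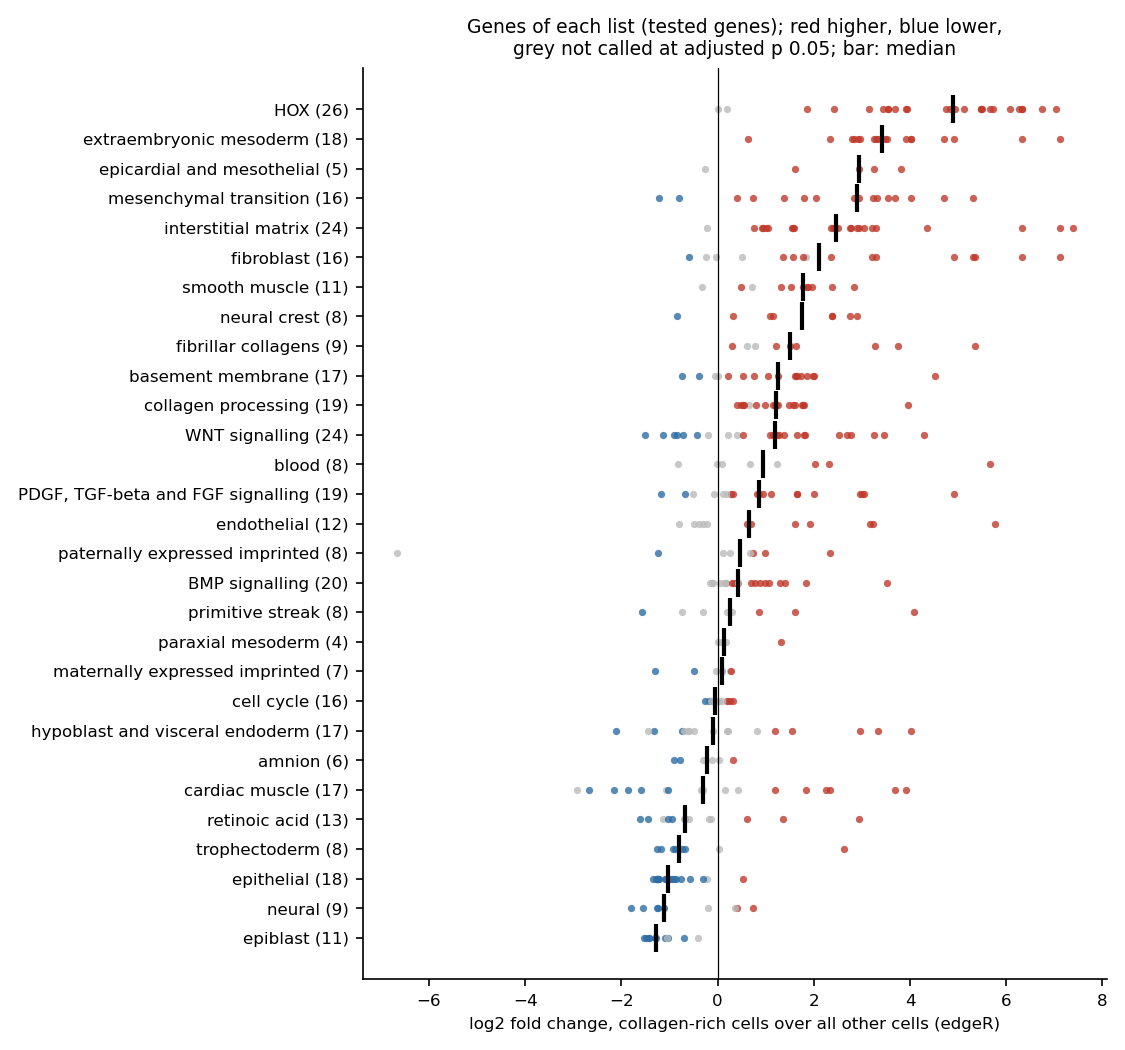
Log2 fold change of each tested gene (points) of the gene lists, with the number tested in brackets and the list median as a bar, in collagen-rich cells against all other cells. All 18 extraembryonic mesoderm genes lie to the right of 0 (median 3.41), the hypoblast genes spread on both sides (median -0.10), and epiblast and epithelial genes lie mostly to the left.

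HOX genes, which mark position along the body axis, were mostly higher in the collagen-rich cells. Of 36 HOX genes in the files 26 were tested, 24 were higher and none lower, with a median log2 fold change of 4.89. The filter on low counts keeps a gene that reaches its minimum in any 2 sums. A gene could thus be tested on the collagen-rich sums alone, so the count of higher genes follows from the filter in part. HOXC10 and HOXC13 were not called, and 10 were too low to test. HOXB2 stood at 59.3 and 74.6 CPM against 1.6 and 1.22 CPM in remaining cells. HOXB8 stood at 25.1 and 34.4 CPM, HOXB6 at 20.9 and 27.8 CPM, and HOXB3 at 17.1 and 18.2 CPM. The 6 genes HOXB2, HOXB3, HOXB5, HOXB6, HOXB7 and HOXB8, all higher, lie within chr12:24796786-24879706 (susScr11) on the minus strand, and HOXB13 further out was at 0 CPM in both libraries.

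On chromosome 15, HOXD1 stood at 32.2 and 36.2 CPM, HOXD8 at 7.36 and 7.84 CPM and HOXD9 at 4.56 and 5.91 CPM, while HOXD12 was at 0 CPM in both libraries. Beyond HOXD9, HOXD10 (1.80 and 1.93 CPM), HOXD11 (2.54 and 2.18 CPM) and HOXD13 (0.184 and 0.257 CPM) were also called higher, HOXD13 on 5 and 4 UMIs. The call of HOXD13 was lost under DESeq2 (adjusted p = 0.0541), without the collagen-rich sum of library 1 (0.0794) or of library 2 (0.104), without cells of high mitochondrial share (0.0593) and with MYL7 + MYL4 under 5 UMIs (0.0681). All HOX genes together made up 201 and 247 CPM in collagen-rich cells, 80.9 and 71.2 CPM in cardiac myosin cells and 6.56 and 5.06 CPM in remaining cells. In empty droplets they made up 32.9 and 21.8 CPM.

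**Figure D4:**
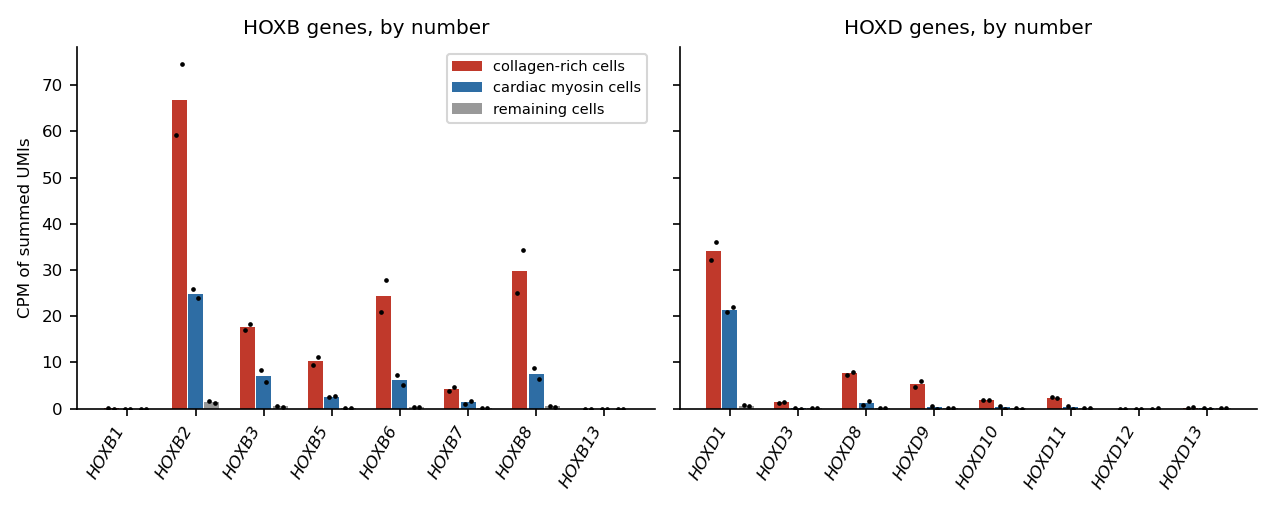
CPM of summed UMIs of the HOXB and HOXD genes in the files, ordered by gene number, in collagen-rich (red), cardiac myosin (blue) and remaining cells (grey). Bars are the means of 2 libraries and points the single libraries; HOXB2 stands at 59.3 and 74.6 CPM in collagen-rich cells, and HOXB1, HOXB13, HOXD12 and HOXD13 are near 0.

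Signalling genes are given by pathway. Of 20 BMP pathway genes 12 were higher and none lower, among them the ligands BMP4 and BMP5 and the pseudoreceptor BAMBI (1.84 ± 0.09). The target ID2 rose by 0.30 ± 0.08, a call lost without the collagen-rich sum of library 1 (0.26, adjusted p = 0.0835), and ID3 was not called. Among PDGF, TGF-beta and FGF genes 13 of 19 tested were higher and 2 lower. The receptors PDGFRB (4.92 ± 0.18) and PDGFRA (2.96 ± 0.12) were higher, and of the ligands PDGFD was higher (0.83 ± 0.09), while PDGFA (1.19 lower on the log2 scale, 28.5 and 22.7 CPM) and PDGFC were lower. The ligand TGFB2 rose from 18.6 and 13.7 CPM in remaining cells to 146 and 153 CPM.

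Of 24 WNT pathway genes 15 were higher and 6 lower. The ligand WNT2 rose by 4.30 ± 0.29 to 25.1 and 28.4 CPM, the nuclear effector LEF1 by 1.80 ± 0.06 and the target AXIN2 by 1.10 ± 0.09. The secreted inhibitor SFRP1 stood at 320 and 348 CPM against 106 and 111 CPM in remaining cells. Of 13 retinoic acid genes 3 were higher and 5 lower. CRABP1, not called here, was called lower with at least 20 collagen UMIs (-1.34, adjusted p = 0.000459). On thinned counts it was called lower too (-1.77, adjusted p = 2.15e-05), and cluster 7 described below held it at 3178 CPM. ALDH1A2, which makes retinoic acid in mesoderm, rose by 2.94 ± 0.28 to 2.58 and 3.92 CPM, and CYP26A1, which degrades it, was lower (40.1 and 37.7 CPM against 99.7 and 121 CPM in remaining cells). Of 16 cell cycle genes 3 were higher and 2 lower, with a median log2 fold change of -0.05. Among all genes tested 18.0% were higher and 16.2% lower, so the cell cycle list was near or below these shares. The calls of TOP2A and AURKB (higher) and of TYMS and RRM2 (lower) were each lost under at least 1 alternative.

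Genes that fell were read by the same rule of at least 50 CPM. SGIP1, an endocytic adaptor of neurons, fell from 69.0 and 78.3 CPM to 20.6 and 18.2 CPM (log2 fold change -1.87 ± 0.10, adjusted p = 1.07e-05). The others were KCNJ3, NETO1, LRRC7, MAP2, GALNT3, UTF1, RORB, C6H16orf74 and the tight junction gene CLDN3, each 2.71-fold to 3.11-fold lower. All 10 were higher in cluster 3, rich in doublet calls and described below, than in clusters 1, 2, 4 and 5 together. NETO1 stood at 92.6 and 73.8 CPM in cluster 3 against 4.38 and 4.63 CPM in those 4 clusters, MAP2 at 247 and 230 against 17.4 and 17.3 CPM, CLDN3 at 162 and 168 against 10.6 and 8.43 CPM, and SGIP1 at 40.3 and 42.4 against 4.54 and 2.97 CPM. Of 11 epiblast genes 9 were lower and none higher. The call of DNMT3B, one of the 9, was lost without the collagen-rich sum of library 1 (-0.95). POU5F1, the pluripotency factor, stood at 25.9 and 35.5 CPM against 69.0 and 100 CPM in remaining cells. It was 51.3 and 81.5 CPM in cluster 3, rich in doublet calls, and 4.62 and 6.65 CPM in clusters 1, 2, 4 and 5 together. Of 8 trophectoderm genes 6 were lower and 1 higher, the latter being CDX2 at 3.27 and 4.69 CPM against 0.568 and 0.718 CPM.

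Markers of further cell types were mixed. Of 12 endothelial genes 7 were higher, namely TEK, KDR, ERG, EMCN, ETV2, FLT1 and ESAM. The call of ESAM was lost under 7 alternatives (adjusted p = 0.0799 to 0.723), namely DESeq2, thinned counts, at least 20 collagen UMIs, removal of doublet calls, and leaving out the collagen-rich sum of library 1 or the sum of other cells of either library. ERG stood at 6.40 and 8.67 CPM and EMCN at 2.43 and 2.63 CPM, and of the 5 not called PECAM1 stood at 1.73 and 1.35 CPM and CDH5 at 0.11 and 0.0642 CPM. Of 8 blood genes 3 were higher, among them RUNX1 (35.1 and 36.7 CPM), while GATA1, PTPRC and ALAS2 were below 0.3 CPM. Of 5 epicardial and mesothelial genes tested 4 were higher, among them TCF21 at 5.11 and 5.78 CPM. Of 8 neural crest genes 7 were higher and 1 lower, and SCRG1, SOX10 and FOXD3 among them led a cluster of 28 cells described below. The call of FOXD3 was lost without the collagen-rich sum of library 1 (adjusted p = 0.0706) or of library 2 (0.101). On thinned counts FOXD3 (-1.62) and SOX10 (-1.39) were called lower, and the 8 genes together made up 119 and 132 CPM in collagen-rich cells and 118 and 123 CPM in remaining cells. Of 4 paraxial mesoderm genes tested 1 was higher, and of 8 primitive streak genes 3, among them EOMES at 7.03 and 7.71 CPM. MIXL1 was at 0.147 and 0.128 CPM. Of 6 amnion genes 1 was higher and 2 lower, and of 9 neural genes 2 were higher and 5 lower, against 18.0% and 16.2% of all genes. The amnion gene GABRP, not called here, was called lower with at least 20 collagen UMIs (-0.61, adjusted p = 0.0012). On thinned counts it was called lower too (-1.54, adjusted p = 4.63e-06). The call of IGFBP3, a lower amnion gene, was lost with MYL7 + MYL4 under 5 UMIs (adjusted p = 0.0576). It was also lost without the collagen-rich sum of library 2 (-0.61).

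Imprinted genes were read because the study describes pESCs from parthenogenetic blastocysts and blastoids made from these pESCs. Which individual line made the blastoids is not given in the sources used here. Of 14 paternally expressed genes in the files, 8 were tested and 3 were higher (IGF2, MEST and PLAGL1) and 1 (DLK1) lower. IGF2 reached 8.61 and 11.4 CPM against 1.67 and 2.12 CPM in remaining cells. NDN, PEG10 and MAGEL2 stood at 0 to 0.0368 CPM in every class of cells. In the pESC libraries NDN was 47.7 FPKM (fragments per kilobase of transcript, scaled to depth) in the column IVFP25 and 0 in PA_4P7 and PAP25, and SNRPN was 100 FPKM in IVFP25 against 0 and 0.00688. Of 7 maternally expressed genes 1 was higher and 2 lower, against 18.0% and 16.2% of all genes tested. MEG3 was among the lower genes (10.4 and 9.38 CPM against 23.5 and 26.8 CPM in all other cells). The call of IGF2R, the other lower gene, was lost with MYL7 + MYL4 under 5 UMIs (-0.43, adjusted p = 0.0716).

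The genes of the rule and their companions were read in the pESCs as well. Over the 3 pESC libraries COL3A1 was 0.0114 ± 0.00991 FPKM (SD), COL1A2 1.87 ± 0.472 and COL1A1 4.00 ± 0.438. TWIST1 was 0.131 ± 0.193 FPKM, HAND1 0.0476 ± 0.0824 and DCN 0.0902 ± 0.112. In the columns IVFP25, PA_4P7 and PAP25, TWIST1 was 0.0406, 0 and 0.352 FPKM and HAND1 0, 0 and 0.143. The column PAP25 was also highest in SOX17 (26.1 against 1.73 and 1.82 FPKM) and FOXA2 (81.8 against 13.2 and 15.5). It was highest in GATA4 as well (5.99 against 0.234 and 0.252). APOA1 was 50.1, 46.8 and 350 FPKM in the same order of columns. VIM was present at 43.1 ± 16.2 FPKM, and the pluripotency genes POU5F1 and SOX2 stood at 526 ± 105 and 217 ± 31.0. In such bulk libraries few cells with much RNA and many cells with little cannot be told apart, and FPKM and CPM were not compared with each other.

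The second comparison set the collagen-rich cells against the cardiac myosin cells, 179 in library 1 and 93 in library 2. Of 15109 genes tested, 960 were higher in collagen-rich cells (6.35%) and 1271 lower (8.41%), with a median log2 fold change of 0.00. DESeq2 gave 582 and 829, and the gate on thinned counts 1805 and 1906. Because MYL7 and MYL4 chose the cardiac myosin cells, the direction of heart muscle genes follows from the choice. Among the cardiac myosin cells, 79 and 26 also had at least 10 collagen UMIs. The collagen minimum applied to the collagen-rich cells only. Their median was 48 and 41 collagen UMIs, against 7 and 3 in cardiac myosin cells. Differences in collagen, matrix and mesenchymal genes below therefore also follow from the choice in part and are given as a description.

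Other sarcomere genes were low where cardiac myosin was low. TNNT2, cardiac troponin T, stood at 7.95 and 6.04 CPM in collagen-rich cells, 559 and 750 CPM in cardiac myosin cells and 16.5 and 10.2 CPM in empty droplets. TTN (titin) was 147-fold lower, HSPB7 226-fold, MYBPC3 261-fold, MYL3 135-fold and ACTC1, cardiac actin, 106-fold. Of 17 heart muscle genes 15 were lower than in cardiac myosin cells and none higher. Against all other cells 6 of them (TBX5, MEF2C, HAND2, RYR2, PLN and SLC8A1) were higher and 5 lower, and the 17 genes summed to 509 and 507 CPM in collagen-rich cells against 173 and 151 CPM in remaining cells. MYH6 has no row in the count files. ACTC1, one of the 5 lower genes, turned to higher (0.71, adjusted p = 0.000818) when the cardiac myosin cells were left out of the other cells. Its call was lost without the collagen-rich sum of library 1 (-1.46). Against other cells without the cardiac myosin cells, TNNT2 was 3.24 higher on the log2 scale (0.943 and 0.609 CPM there), while against all other cells its direction was the opposite (-1.07, adjusted p = 0.0709). The latter difference passed the test with the library as a block (-1.10, adjusted p = 0.000277), without the filter on low counts (-1.09, adjusted p = 0.0254), without the sum of other cells of library 2 (-1.55, adjusted p = 1.59e-21), with at least 20 collagen UMIs (-1.49, adjusted p = 0.0254) and with MYL7 + MYL4 under 5 UMIs (-1.84, adjusted p = 0.0157).

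Of 17 extraembryonic mesoderm genes tested against cardiac myosin cells 12 were higher, 2 (TBX20 and GATA4) lower and 3 not called. Their median log2 fold change was 1.19. Of 13 fibroblast genes tested 11 were higher and none lower, with a median of 1.44. Of 9 hypoblast and visceral endoderm genes tested 2 were higher, 2 lower and 5 not called, with a median of -0.06. Of 14 genes tied to the mesenchymal state 11 were higher and 1 (CDH2) lower. The call of VIM, one of the 11, was lost without doublet calls (0.31, adjusted p = 0.167). Of 18 epithelial genes none was lower than in cardiac myosin cells and 3 (CDH3, KRT8 and KRT19) were higher. Of 10 epiblast genes tested 1 (ETV5) was lower, and of 8 trophectoderm genes 1 (CDX2) was higher and none lower. The lower levels of these 3 lists against all other cells were thus not particular to the collagen-rich cells. GATA6 did not pass the test (128 and 145 against 118 and 110 CPM, adjusted p = 0.175), but it did with at least 20 collagen UMIs (0.45, adjusted p = 0.00491) and on thinned counts (0.41, adjusted p = 0.00662). GATA4 was 1.42 ± 0.09 lower on the log2 scale in collagen-rich cells than in cardiac myosin cells, TBX20 1.09 ± 0.08 lower and TBX5 1.47 ± 0.10 lower. HAND1 was 1.23 ± 0.08 higher, BMP4 0.99 ± 0.11 higher and PRRX1 2.25 ± 0.13 higher. TWIST1 was 0.43 ± 0.10 higher (adjusted p = 0.0127), a call lost without doublet calls (0.42, adjusted p = 0.0829) and with MYL7 + MYL4 under 5 UMIs (0.27, adjusted p = 0.125).

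DCN was 7.04-fold higher than in cardiac myosin cells (36.3 and 35.4 CPM there), POSTN (periostin) 6.36-fold, LUM 4.6-fold, TAC3, a tachykinin, 4.48-fold and PTX3 4.09-fold. TAC3 was carried by 1 cluster of 93 collagen-rich cells described below (1230 CPM), and the other collagen-rich cells held 34.6 CPM against 28.5 and 16.2 CPM in cardiac myosin cells. Of 36 HOX genes in the files 17 were tested. All 17 were higher, with a median log2 fold change of 2.34 and HOXB2 at 1.36 ± 0.13. Genes could enter the test through the collagen-rich sums alone here too, so this count follows from the filter in part. Of 23 interstitial matrix genes 15 were higher, 1 lower and 7 not called. Of 19 collagen processing genes 13 were higher and none lower, and of 8 fibrillar collagen genes 4 were higher and 1 (COL2A1) lower. Of 17 basement membrane genes 3 were higher, 3 (COL4A5, COL4A6 and HSPG2) lower and 11 not called. They summed to 1255 and 1384 CPM in collagen-rich cells and 1078 and 1261 CPM in cardiac myosin cells. COL1A1 was 1.92 ± 0.15 higher, SPARC did not pass the test (252 and 305 against 247 and 288 CPM), and FBN2 (fibrillin 2), the lower interstitial gene, was 0.86 ± 0.10 lower. Of 11 smooth muscle genes 9 were lower and none higher, with ACTA2 at 276 and 298 against 1394 and 1623 CPM. Yet 9 of the same 11 were higher than in all other cells. Of 19 BMP pathway genes tested against cardiac myosin cells 4, BMP4 among them, were higher and 6 lower. The lower ones included BMP5 (86 and 94 against 128 and 134 CPM) and BAMBI. Of 23 WNT pathway genes 6 were higher and 4, WNT2 among them, lower, while AXIN2 was not called. The rises of BMP5, BAMBI, WNT2 and AXIN2 over all other cells were thus not particular to the collagen-rich cells.

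The collagen-rich cells were not of a single kind. Clustering them without the 4 rule genes gave 7 clusters, each present in both libraries, which are described without tests. Genes were centred within each library first, which favours clusters that mix the libraries. Clusters 1, 2, 4 and 5 held 950 cells (69.5%), 67.2% of the collagen-rich cells of library 1 and 72.8% of library 2. In these 4 clusters together TWIST1 was 789 and 772 CPM, HAND1 828 and 772 CPM, GATA6 222 and 222 CPM and BMP4 414 and 421 CPM. CDH1 was 9.17 and 6.77 CPM there. KRT8 stood at 3396 and 3205 CPM there.

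**Figure D5:**
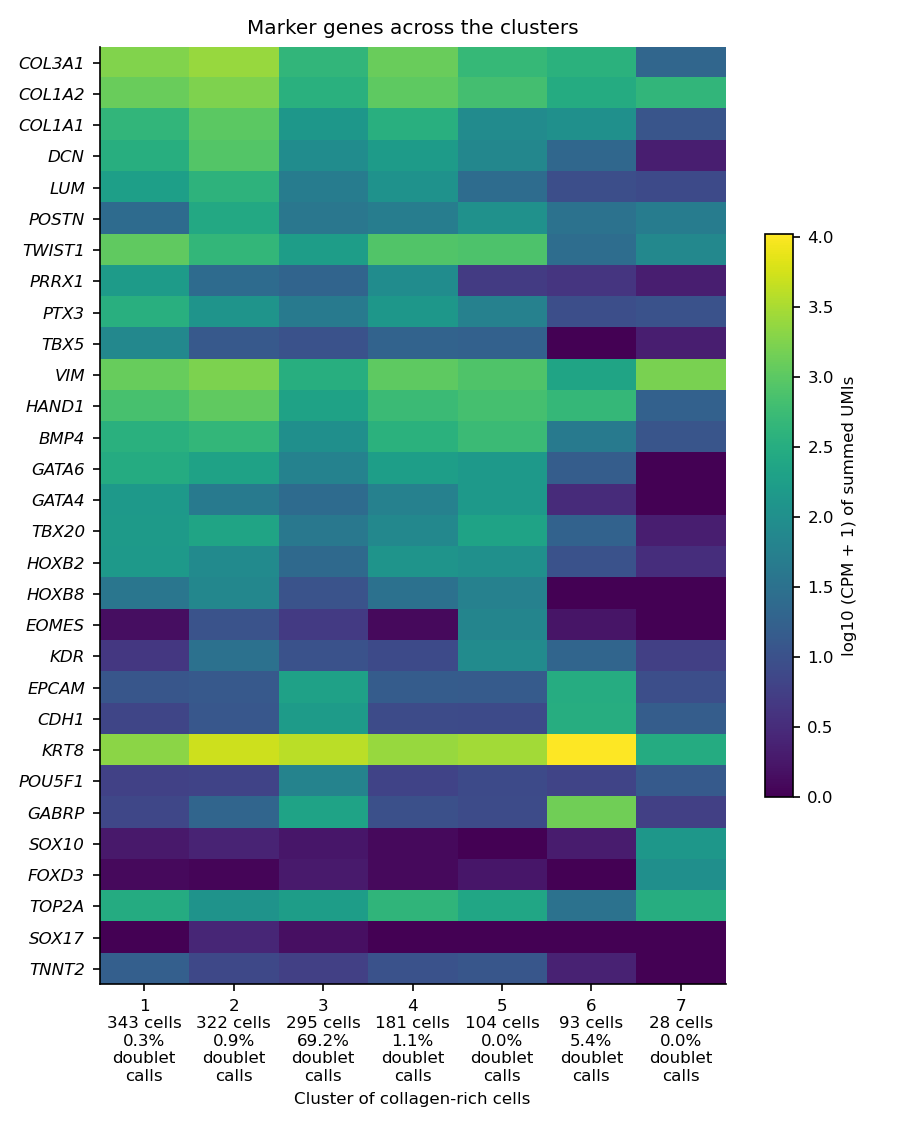
Level of marker genes as log10 of CPM + 1 (colour) in the 7 clusters of collagen-rich cells, with the number of cells and the share of doublet calls under each. TWIST1, HAND1, GATA6 and HOXB2 are high in clusters 1, 2, 4 and 5, EPCAM and CDH1 in clusters 3 and 6, and SOX10 and FOXD3 in cluster 7.

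Cluster 1 (343 cells) was led by LHFPL3, SYT1 and CNTNAP5 and held the highest TWIST1 (1086 CPM) of the clusters, with PRRX1 at 158, TBX5 at 74.8, WNT2 at 86.9 and PTX3 at 345 CPM. Cluster 2 (322 cells) was led by IGFBP7 and CST3 (22211 CPM) and held the matrix genes, with DCN at 878, LUM at 394, POSTN at 268 and COL1A1 at 1022 CPM. HAND1 was highest there (1095 CPM) and MKI67, a proliferation marker, low at 15.9 CPM. Cluster 4 (181 cells) was led by WNT5B, ATF5 and CHAC1, with the serine synthesis genes PSAT1 (199 CPM) and PHGDH (198 CPM) and the mitotic gene TOP2A (426 CPM). ATF5 and CHAC1 are known from the amino acid stress response.

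Cluster 5 (104 cells) was led by LGR5 and CFC1B and held EOMES at 65.2, KDR, the VEGF receptor, at 85.9 and BMP4 at 538 CPM. HOXB8 was 56.2 CPM in it, while HOXD9, at 7.1 to 14.1 CPM in clusters 1, 2 and 4, was at 0 CPM. None of these 4 clusters held SOX17 above 1.66 CPM or any FOXA2.

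Cluster 3 (295 cells) stood apart by depth. It had a median of 51306 UMIs and 8294 genes per cell, and 204 of its cells (69.2%) were called doublets, out of 128 doublet calls among the collagen-rich cells of library 1 and 87 of library 2. Its leading genes were CYP26A1, FXYD4 and CLDN10, with NETO1, LRRC7, GALNT3 and MAP2, genes lower in the whole class, also among its top 10. It held EPCAM at 195 CPM and POU5F1 at 60.9 CPM beside TWIST1 at 170 CPM. Without the doublet calls the sum of collagen-rich cells held EPCAM at 85.3 and 56.8 CPM and POU5F1 at 18.8 and 24.2 CPM. What doublets added to the levels of the whole class was not tested beyond these values.

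Cluster 6 (93 cells, 67 in library 1 and 26 in library 2) was epithelial in its genes, with a median of only 16 collagen UMIs. It was led by NOV, CEMIP and TAC3 (1230 CPM) and held S100A6 at 7787, GABRP, an amnion marker, at 1397, EPCAM at 305 and KRT8 at 10377 CPM, while TWIST1 was 26.1 CPM. The 18 epithelial genes summed to 26349 CPM in it and to 3494 to 8646 CPM in clusters 1, 2, 4 and 5. VIM was 220 CPM, above the remaining cells and below clusters 1, 2, 4 and 5, and the summed fibroblast genes were 1144 CPM and the smooth muscle genes 2299 CPM. Its leading genes and epithelial levels go against the name mesenchymal.

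Cluster 7 (28 cells, 15 and 13 by library) was neural crest-like by its leading genes. SCRG1 (320 CPM), SOX10 (134 CPM) and FOXD3 (100 CPM) were among the top 10 by fold, together with CDH19 and PAX3 (252 CPM). Its median was 13 collagen UMIs. COL1A2 stood at 445 CPM and COL3A1 at 19.9 CPM in it, and HAND1 (16.4 CPM) and GATA6 (0 CPM) were below their levels in each of clusters 1, 2, 4 and 5. With at least 20 collagen UMIs FOXD3 (-1.07) and SOX10 (0.03) were no longer called higher in collagen-rich cells, with log2 fold changes in brackets.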

How the data were processed

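The 2 blastoid libraries were deposited as raw UMI counts of every barcode, which the authors made with Cell Ranger 7.1.0 on susScr11. For the 3 pESC libraries the authors trimmed reads with Trim Galore 0.6.4, mapped them with HISAT2 2.2.1 and deposited FPKM per transcript from StringTie 2.2.1. The FPKM of a symbol's transcripts were added up here, and the 3 columns, which carry names but no replicate number, were used as 1 group although the names do not match the sample titles and the columns differ in paternally expressed genes. Called cells held 254038630 and 264987746 UMIs, with medians of 29728 and 27588 per cell. Cells with little RNA fall under the UMI minimum.

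Cells, classes and gene lists were chosen with earlier results of these data known. UMIs were summed per library and class, filtered with filterByExpr, scaled by TMM and tested with edgeR 4.0.16 in R 4.3.3 (quasi-likelihood, Benjamini-Hochberg adjustment over all genes tested). The SE of a log2 fold change was derived from the test statistic, and folds were taken from the fitted values. The fit was tested on simulated data with known changes. Sums of 1 library share that library, and their deviations from the class means correlated at 0.162 across genes (first comparison) and 0.0981 (second), so a fit with the library as block was an alternative. CPM are counts over all UMIs of a sum, not scaled by gene length.

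For doublets, Scrublet scores (scanpy 1.11.5) were used. The threshold that Scrublet chose marked 1 cell in library 1 and 0 in library 2 and had not worked, so the highest scores up to 0.8% per 1000 cells were called (434 and 535 cells) and kept except in an alternative. Clusters used 2000 variable genes centred within each library, 20 principal components, 15 neighbours and Leiden resolution 0.5. Named genes were the 10 up and 10 down in the first comparison and the 5 up and 5 down in the second with the largest fold change at an adjusted p under 0.05, the same direction in both libraries and at least 50 CPM in the higher class, without rule genes and symbols starting with LOC, and per list those with the highest level or largest change and defining markers near 0. Other genes were named after their values were seen. Coordinates came from the RefSeq annotation of Sscrofa11.1 (susScr11), in which 29862 of 30029 names (99.4%) had an entry. Some genes of the lists entered the counts and are not reported here by name.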

Additional observations from a re-analysis of the deposited data

Results flagged for a closer look

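Barcodes below the UMI minimum, which no comparison used, also met both gene conditions. Between 1000 UMIs and the minimum, 122 of 3108 barcodes of library 1 and 73 of 3661 of library 2 had at least 10 collagen UMIs and under 20 myosin UMIs. Their class was not analysed, and COL3A1 + COL1A2 made up 375 and 203 CPM of the UMIs of all these barcodes. Empty droplets also held COL3A1 (114 and 45.6 CPM), so a count of 0 is no background for these barcodes.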

How the results depend on the processing

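With the library as a replicate block, the pairing of sums gave 4174 genes higher and 3930 lower in the first comparison and 1374 and 1732 in the second, and no count moved by over 1.5 times. In the second comparison DESeq2 gave 582 genes higher and 829 lower against 960 and 1271, and the gate on thinned counts gave 1805 higher and 1906 lower. Leaving out 1 sum gave 2912 to 3266 genes higher and 2449 to 2967 lower in the first comparison, and 743 to 1200 and 895 to 1455 in the second. A lone sum was assumed to vary like the other class. Shares of collagen-rich cells in libraries 1 and 2 were 7.91% and 5.42% with MYL7 + MYL4 under 5, 8.52% and 5.38% with COL3A1 + COL1A2 of at least 20, 7.75% and 5.25% on thinned counts, and 9.68% and 6.28% without doublet calls. Leiden resolution 0.8 gave 13 clusters. On at least 20 collagen UMIs, log2 fold changes turned for PAX3 (-0.95) and FOXD3 (-1.07), and on thinned counts for PAX3 (-1.77), FOXD3 (-1.62), SOX10 (-1.39) and COL2A1 (-0.10). Against other cells without cardiac myosin cells, TNNT2 (3.24) and ACTC1 (0.71) turned. The causes of these changes were not tested. Of 2214 fits of 148 named genes in the first comparison 42 lost the call and 24 gained it with the direction kept. A further 8 fits turned in direction, called or not, and are counted apart. Of 476 fits of 34 genes in the second comparison 3 lost the call and 2 gained it.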
